A study of Mus musculus with 2 samples.

Results

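H/ACA small nucleolar RNAs (snoRNAs) and small Cajal body RNAs (scaRNAs) were described in total RNA of the mouse adrenal gland. The members were the genes whose symbol begins with Snora or Scarna followed by a digit, 51 genes of the 55536 in the gene table, with 49 different symbols. They comprised 42 Snora genes and 9 Scarna genes on 20 chromosomes. Snora16a and Snora43 each named a pair of overlapping gene models. Annotated lengths ran from 70 to 414 bases with a median of 133 bases, and GC content ran from 33.3% to 64.1% with a median of 48.6%.

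The samples were adrenal glands of male B6CASTF1/J mice aged 2 months, the first-generation hybrid of C57BL/6J and a CAST strain. The series held 1 group of 2 libraries, replicate 1 and replicate 2, each from 300 ng of RNA made with a directional (stranded) kit after ribosomal RNA was reduced, with ERCC spike-in RNAs added. The sample descriptions gave the libraries different animal numbers, but the library descriptions and the donor field gave both the same entry, so the spread between them may be technical. No treatment, mutant or second age was present, so levels are given per library and no p-value was possible. The libraries held 36512736 and 34454892 expected counts, and reads are not counted by molecular identifiers, so all intervals cover counting error alone.

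H/ACA RNAs are guides. Each folds into a pair of hairpins followed by an H box and an ACA box, and pairs with a target RNA to place a uridine in the active site of dyskerin, the pseudouridine synthase that the Dkc1 gene encodes. Snora RNAs act in the nucleolus, mainly on ribosomal RNA, while scaRNAs act on spliceosomal small nuclear RNAs in the Cajal body, and some of these carry box C/D elements that guide methylation. Most are cut out of introns of other genes, called host genes here, so the sequence of the guide and the place it lies in both bear on what a library can record of it.

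The sequences below are shown because the results turn on them. They come from the transcripts of GENCODE M21 on assembly GRCm38 and run 5′ to 3′. A match to the H box (ANANNA) and the ACA of the ACA box are in capitals. Where more than 1 ANANNA lay in the searched places, only 1 is marked, chosen by its distance from the ACA. The marked stretch is thus a candidate H box. The first pair, Snora73a at chr4:132352775-132352979 and Snora73b at chr4:132352322-132352526, both on the minus strand, are near-identical guides from 1 host region. The next 3 all lie in Snhg12 on the plus strand, Snora44 at chr4:132309941-132310069, Snora61 at chr4:132310240-132310369 and the 137-base Snora16a at chr4:132309464-132309600.
Snora73a: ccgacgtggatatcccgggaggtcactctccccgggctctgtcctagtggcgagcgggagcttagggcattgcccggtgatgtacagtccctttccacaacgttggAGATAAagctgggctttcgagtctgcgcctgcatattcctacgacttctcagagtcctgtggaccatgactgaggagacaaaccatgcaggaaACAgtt
Snora73b: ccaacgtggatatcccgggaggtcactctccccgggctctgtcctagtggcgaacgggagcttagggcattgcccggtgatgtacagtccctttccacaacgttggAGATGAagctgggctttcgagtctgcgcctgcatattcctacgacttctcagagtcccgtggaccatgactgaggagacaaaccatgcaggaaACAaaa
Snora44: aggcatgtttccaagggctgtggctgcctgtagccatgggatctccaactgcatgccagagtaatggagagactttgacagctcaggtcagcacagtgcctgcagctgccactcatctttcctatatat
Snora61: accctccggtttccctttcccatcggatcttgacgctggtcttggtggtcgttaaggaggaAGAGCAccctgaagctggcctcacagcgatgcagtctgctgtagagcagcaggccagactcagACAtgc
Snora16a: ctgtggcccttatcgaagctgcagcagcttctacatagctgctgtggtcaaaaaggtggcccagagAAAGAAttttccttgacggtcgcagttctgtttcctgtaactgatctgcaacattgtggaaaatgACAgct
Snora44 has no capitals because its annotated 3′ end did not carry the pair of boxes in the searched places.

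Of the remaining sequences, Snora23 at chr7:110046364-110046547 (plus strand) was a long guide in Ipo7, and Snora20 at chr17:12922790-12922917 (plus strand) had the boxes but no counts. Scarna13 at chr12:105031075-105031349 (minus strand) carried an H/ACA end. Scarna6 at chr1:87784556-87784820 (plus strand) is shown with box C (TGATGA) and box D (CTGA) in capitals instead.
Snora23: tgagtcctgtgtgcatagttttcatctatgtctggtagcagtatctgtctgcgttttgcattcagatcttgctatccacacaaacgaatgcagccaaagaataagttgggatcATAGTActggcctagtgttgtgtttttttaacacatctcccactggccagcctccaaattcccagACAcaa
Snora20: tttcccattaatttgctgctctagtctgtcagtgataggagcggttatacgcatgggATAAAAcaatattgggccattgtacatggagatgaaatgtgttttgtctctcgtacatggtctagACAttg
Scarna13: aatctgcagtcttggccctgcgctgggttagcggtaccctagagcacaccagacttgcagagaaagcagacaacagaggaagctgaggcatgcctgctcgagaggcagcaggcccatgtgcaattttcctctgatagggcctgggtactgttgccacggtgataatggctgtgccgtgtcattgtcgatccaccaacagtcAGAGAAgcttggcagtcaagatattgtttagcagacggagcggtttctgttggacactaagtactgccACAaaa
Scarna6: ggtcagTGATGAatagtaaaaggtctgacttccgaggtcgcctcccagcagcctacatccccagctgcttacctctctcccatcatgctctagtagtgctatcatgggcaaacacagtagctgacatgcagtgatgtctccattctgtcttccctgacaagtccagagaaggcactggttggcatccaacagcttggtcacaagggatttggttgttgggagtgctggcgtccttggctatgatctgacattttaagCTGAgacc
The 2 scaRNAs therefore ended in different ways, Scarna13 in an ACA box and Scarna6 in a box D.

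The boxes were searched in all members, on the strand of the RNA alone. A hit needed ACANNN as the last 6 bases and ANANNA starting 45 to 95 bases before that ACA. Both boxes were found in 35 of 51 members (68.6%), in 33 of 42 Snora genes (78.6%) and in 2 of 9 Scarna genes (22.2%). The same search hit 0 of 98 box C/D genes named Snord, 233 of the 1409 other snoRNA and scaRNA genes (16.5%) and 1.06% of 21795 windows of 133 bases from retained-intron transcripts. With the ACA allowed anywhere in the last 10 bases, 41 members had both boxes, against 6.94% of the windows. The Cajal body box TGAG, counted anywhere in the gene, occurred in 8 of 9 Scarna genes (88.9%) and 19 of 42 Snora genes (45.2%). It occurred in 82 of 98 Snord genes (83.7%), so a high share was not particular to Scarna genes. Among the windows 52.6% held it, so the share of Snora genes was below that of the windows. The windows have 133 bases and the Scarna genes up to 414, and a short motif is met more often in longer sequence, so the windows are no matched background for the Scarna genes. Box C, searched as TGATGA and able to overlap TGAG by shared letters, occurred in 6 of 9 Scarna genes (66.7%) and 0 of 42 Snora genes, against 75.5% of Snord genes and 4.93% of the windows.

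Members were few in counts and large per length. They took 0.0635% of all expected counts in replicate 1 (95% interval 0.0627% to 0.0643%, Clopper-Pearson) and 0.0610% in replicate 2 (0.0602% to 0.0618%), a mean of 0.0622% ± 0.00175 (SD, n = 2). Expected counts are reads that the authors' quantifier shared out among transcripts. As TPM, which divides counts by the effective length of a transcript, they summed to 0.406% and 0.384% of the total, a mean of 0.395% ± 0.0156 (SD, n = 2). The 5 highest members held 85.8% and 86.7% of the members' counts. Snora genes summed to 0.248% and 0.227% of TPM, and Scarna genes to 0.158% and 0.156%.

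The effective length was the annotated length minus 99 bases for 49 of 49 members of 100 bases or more. A member shorter than 100 bases could therefore hold no count, and Scarna9 (70 bases) and Scarna17 (79 bases) were unmeasured for this reason. The shortest measured member was Snora26 at 121 bases, with 46.1 and 25.7 TPM from 39.4 and 20.5 counts. No member lay nearer to 100 bases, and the next 2 were the 127-base Snora28 at 5.13 and 6.30 TPM and the 127-base Snora43 at 1.30 and 0 TPM. A member with an effective length of 22 bases gains over 1 TPM from each count, so low TPM of short members rests on very few reads.

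Of the 49 measurable members, 27 had 10 or more counts in both libraries, 10 had 100 or more, 14 had some counts but under 10 in at least 1 library, and 8 had none in either. In both libraries 32 members stood at 1 TPM or more and 24 at 10 TPM or more. Among all 55536 genes, 30.2% had 10 or more counts in both libraries. Among the other 1409 snoRNA and scaRNA genes, most of them known by a number alone, 54 (3.83%) did so and 1297 were at 0.

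**Figure D1:**
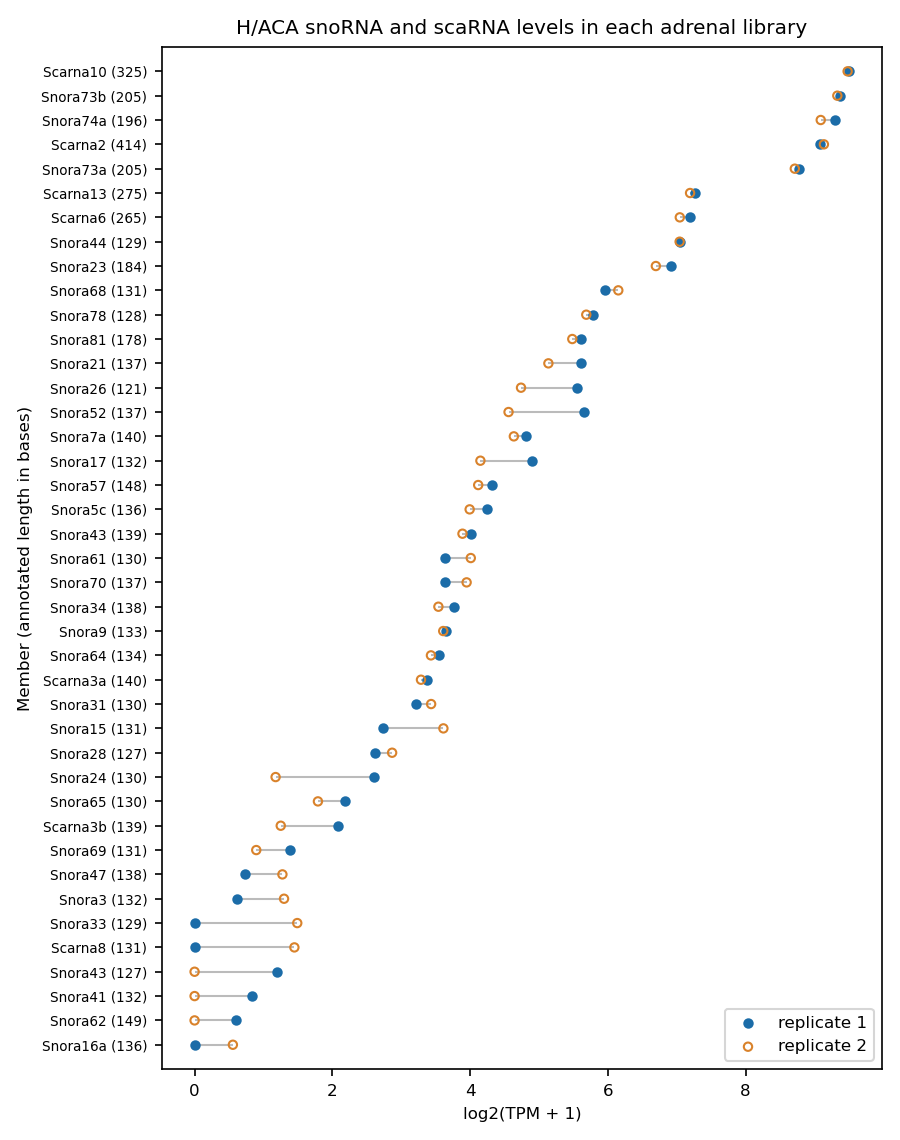
Level of each member in replicate 1 (filled) and replicate 2 (open) on a log2(TPM + 1) axis, with the annotated length in bases beside the name and a grey line between the 2 libraries. The 41 members with any count are drawn, and the 5 highest lie apart from the rest, at 419 TPM or more in both libraries.

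The 5 highest members stood at 419 TPM or more in both libraries. Scarna10, the composite guide called U85 in human cells that acts on the U5 small nuclear RNA, was highest at 726 TPM in replicate 1 and 714 TPM in replicate 2, from 6373 and 5837 counts. Snora73b had 660 and 643 TPM. Snora73a had 437 and 419 TPM. The Snora73 RNAs, known as U17, take part in cleavage of the ribosomal precursor toward 18S ribosomal RNA and are not typical modification guides.

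Snora74a, known as U19 in human cells, stood at 626 TPM in replicate 1 against 544 TPM in replicate 2, the widest gap between the libraries among these 5. Scarna2, a box C/D guide for the U2 small nuclear RNA in human cells, had 542 and 562 TPM from 6632 and 6405 counts. Their ranges over the 2 libraries overlapped, the only such overlap between neighbours among the 10 highest members. Among the 20 highest members, 10 overlapped with the next in order. A range over 2 libraries is narrow by construction, so neighbours that did not overlap can still be close, as Scarna6 and Snora44 were.

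The next 5 lay between 65.5 and 149 TPM on average. Scarna13, called U93 in human cells and made of H/ACA domains, had 153 and 145 TPM. Scarna6, called U88 in human cells, had 145 and 131 TPM. Scarna13 rested on 1043 and 926 counts and Scarna6 on 933 and 787 counts. Snora44 reached nearly the same level, 131 and 131 TPM, from 152 and 142 counts over an effective length of 30 bases. Snora23 had 119 and 103 TPM and Snora68 had 60.9 and 70.1 TPM.

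The scaling of length moved the level of Snora44 more than its place. On the full annotated length its level, scaled to the same total as TPM, was 38.6 and 38.8, while Scarna10 stood at 641 and 634 and was again first. Snora44 ranked 8 of the members by TPM and 9 by full length. The 10 highest members shared 9 genes with the 10 highest by full length and with the 10 highest by counts not divided by length, with Snora81 in the place of Snora68 in both.

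Among the members that followed in order, the gap between libraries varied. Snora78 had 54.1 and 50.5 TPM, Snora81 had 47.8 and 43.8 TPM, and Snora21 had 48.1 and 34.2 TPM. Snora52 stood at 49.3 TPM in replicate 1 against 22.6 TPM in replicate 2, from 72.7 and 31.0 counts, and Snora17 had 28.9 and 16.8 TPM. Replicate 1 was above replicate 2 for each of these 5, by the largest factor for Snora52, which shares every 100-base window with a transcript of its host Rplp2.

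Snora7a had 27.2 and 23.9 TPM, Snora57 had 18.9 and 16.4 TPM, and Snora5c had 18 and 14.9 TPM. A few short guides were higher in replicate 2 by value, among them Snora70 at 11.5 and 14.5 TPM and Snora15 at 5.63 and 11.2 TPM, the second from 7 and 13 counts. Further down, Snora65 had 3.53 and 2.46 TPM, Snora69 had 1.61 and 0.86 TPM and Snora47 had 0.66 and 1.42 TPM. Values this low rest on a handful of reads, and 6 members had counts in 1 library alone: Snora33, Scarna8, Snora41, Snora62, the 127-base Snora43 and the 136-base Snora16a.

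The remaining measurable scaRNAs were low. Scarna3a had 9.42 and 8.76 TPM from 15 and 13 counts, its relative Scarna3b had 3.22 and 1.38 TPM from 5 and 2 counts, and Scarna8 had 0 and 1.73 TPM from 0 and 2 counts. Of the measurable Scarna genes, 4 thus had 787 counts or more in each library, and Scarna3a, Scarna3b and Scarna8 had 15 or fewer. Scarna9 and Scarna17 could hold no count.

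Across the 49 measurable members, the levels of the libraries correlated at a Spearman rho of 0.961 and a Pearson r of 0.983 on log2 values, points that share their lengths and annotation. Over the 20 members that averaged at least 20 counts, the coefficient of variation between libraries had a median of 8.13% and ran from 0.0757% for Snora44 to 52.6% for Snora52.

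Level followed length as a step more than as a slope. No member was between 149 and 178 bases long. The 9 members of 178 bases or more all had 100 or more counts in both libraries, with mean levels of 45.8 to 720 TPM and a median of 428 TPM. The 40 members of 121 to 149 bases had mean levels of 0 to 131 TPM and a median of 4.44 TPM, 18 of them had 10 or more counts in both libraries, and 8 were at 0. The long members held 96.6% and 97.0% of the members' counts.

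Within the 40 short members, Spearman's rho between length and mean TPM was 0.0773, and over all 49 it was 0.484, or 0.508 when TPM was computed on the full length. Among the other snoRNA and scaRNA genes, 19 of 55 of 150 bases or more had 10 or more counts in both libraries (34.5%), against 35 of 981 of 100 to 149 bases (3.57%) and 0 of 373 shorter ones. Mean levels reached 448 TPM in the longer group and 1974 TPM in the group of 100 to 149 bases, and both medians were 0. The 55 longer genes summed to 3919 and 4001 TPM in replicates 1 and 2, and the 981 others to 5724 and 5383 TPM. The level per gene was thus higher in the longer group. Of 98 Snord genes, which are mostly shorter, 11 reached 100 bases and 5 had 10 or more counts. Loss of short RNA before sequencing and a low level in the gland cannot be told apart here.

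**Figure D2:**
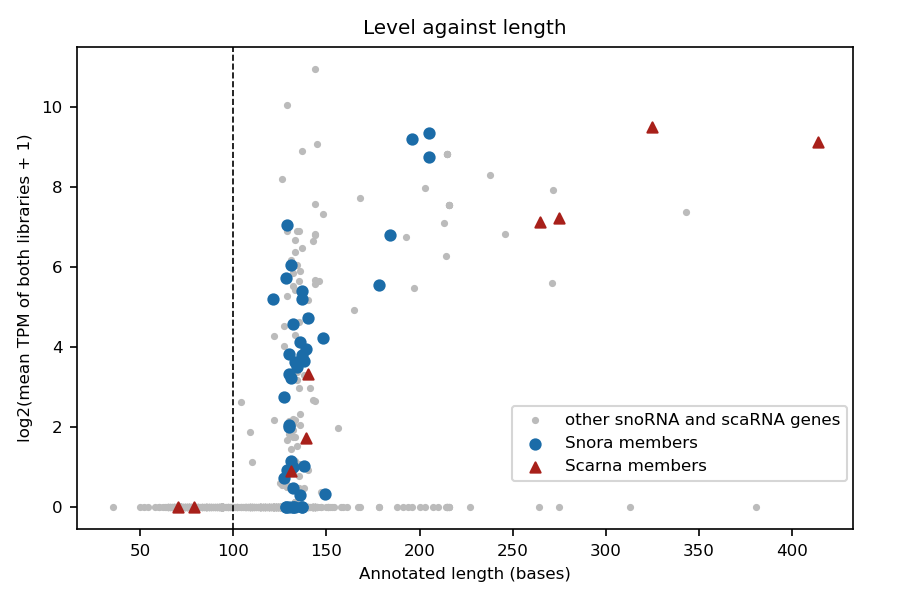
Mean level of both libraries on a log2(TPM + 1) axis against annotated length in bases, for Snora members (circles), Scarna members (triangles) and other snoRNA and scaRNA genes (grey). The dashed line marks 100 bases, below which every gene drawn is at 0, and the 9 members of 178 bases or more all lie above 40 TPM.

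The authors' second set of values, computed from read files without alignment to the genome, held counts for 3 members. Scarna2 had 1983 and 1882 estimated counts there, against 6632 and 6405 in the alignment-based table. Scarna10 had 4 and 4, and Scarna13 had 1 and 0. Scarna2 (414 bases) and Scarna10 (325 bases) were the longest members, and all levels given here come from the alignment-based table.

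Nearly all members lay inside another gene. On the same strand, 45 of 51 were within a host gene, 20 in introns alone and 25 overlapping an annotated exon of at least 1 transcript. By the gene type of the annotation, the hosts of 35 members included a protein-coding gene and those of 10 were noncoding alone. The 10 include Snora15, because its host Cct6a is labelled a processed transcript there. The 6 members with no host were Scarna2, Scarna17, Snora17, Snora57 and both Snora43 models.

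Levels of members and hosts were set side by side. Over 44 members with a host and 100 bases or more, Spearman's rho between mean TPM of member and host was -0.114, and over the 36 short ones it was 0.140. Members stood above their host in 12 of 44 cases. Scarna10 averaged 720 ± 8.39 TPM and its host Ncapd2, a condensin subunit, 6.4 ± 1.37 TPM (SD, n = 2). Scarna13 averaged 149 TPM in the noncoding gene Snhg10 at 1.42 TPM. Scarna6 averaged 138 TPM in Atg16l1, an autophagy gene, at 9.11 TPM. These 3 hosts stood below 10 TPM while their guides were among the highest members. The other members above their host were Snora73a, Snora73b, Snora74a, Snora44, Snora23, Snora78, Snora26, Snora61 and Snora9. For Snora61 and Snora9 this order rested on the effective length. On full annotated length they averaged 4.03 and 3.70, below the 6.725 and 4.165 TPM of their hosts Snhg12 and Snhg15. Both also share every 100-base window with transcripts of the host.

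Several of the hosts that stood below a member are noncoding genes known mainly for carrying snoRNAs. Snora78 averaged 52.3 TPM in Snhg9, which had 1.84 and 0 TPM. Snora26 averaged 35.9 TPM in Dancr, at 2.53 and 2.76 TPM, and Snora9 averaged 11.4 TPM in Snhg15, at 3.05 and 5.28 TPM. Not every guide in such a gene was above it, since Snora24 had 5.07 and 1.26 TPM in Snhg8 at 12.03 and 10.7 TPM. Snora78 at chr17:24719676-24719803 on the minus strand and Snora64 at chr17:24720772-24720905 on the plus strand are close neighbours from different hosts, and Snora64, in Rps2, had 10.8 and 9.79 TPM.

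Ribosomal protein genes hosted 11 members and showed the opposite order. Their hosts averaged 46.7 TPM or more, the members 0.255 to 65.5 TPM with a median of 10.3 TPM, and 0 of 11 members stood above the host. Snora21 averaged 41.1 TPM in Rpl23 at 254 TPM. Snora62 averaged 0.255 TPM in Rpsa at 232 TPM. Snora31, in the translation-linked gene Tpt1, averaged 9.06 TPM against 911 TPM for the host, the highest host of all. For comparison, the 25 other short members with a host had a median of 2.30 TPM. Most of them also stood below their host, so this order was not particular to ribosomal protein genes.

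**Figure D3:**
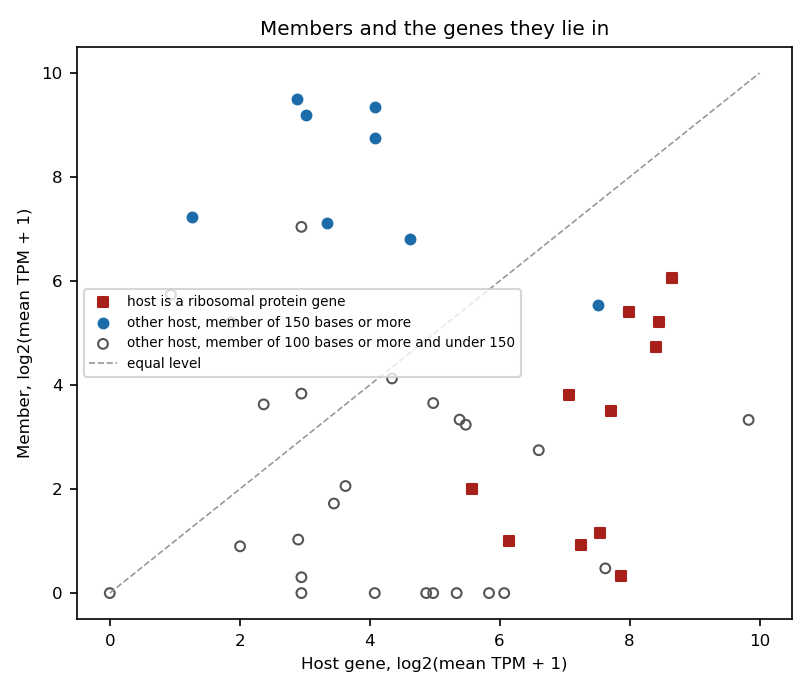
Mean level of each member against that of its host gene, both on log2(TPM + 1) axes, for ribosomal protein hosts (squares), other hosts of members of 150 bases or more (filled circles) and other hosts of short members (open circles). The dashed line marks equal levels: 0 of 11 members in ribosomal protein genes and 12 of 44 members in all lie above it.

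Guides that share a host had unequal levels. Snhg12, a noncoding host at 7.62 and 5.83 TPM, holds Snora44 at 131 and 131 TPM, Snora61 at 11.4 and 15.1 TPM, and both Snora16a models, the 136-base one at 0 and 0.47 TPM and the 137-base one at 0 in each library. Among the sequences above, Snora61 and Snora16a carry the H and ACA boxes and Snora44, the highest, had no match. Every 100-base window of these members also occurs in a Snhg12 transcript that keeps the intron. Over their whole length, which extends beyond the guides, the transcripts that contain the 136-base Snora16a took 59.4 and 63.6 counts and those that contain Snora44 took 45.4 and 37.2 counts. How reads over the guides themselves were split was not measured.

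Snhg3 lies within the region of Rcc1 on the same strand, and both together stood at 16.9 and 14.8 TPM. Their guides Snora73a and Snora73b summed to 1097 TPM in replicate 1 and 1062 TPM in replicate 2. Snora73b had 1.51 times the counts of Snora73a in replicate 1 and 1.54 times in replicate 2. The pair were identical at 198 of 205 bases (96.6%), and counted from the 5′ end with the Snora73a base first they differed by G3A, G54A, A111G, T164C, G203A, T204A and T205A. No stretch of 100 bases was the same in both, and the authors' posterior SD of the counts was 12.5 for Snora73a and 12.3 for Snora73b in replicate 1, and 11.2 and 11.1 in replicate 2. The difference between the pair was far larger than those SDs in both libraries.

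**Figure D4:**
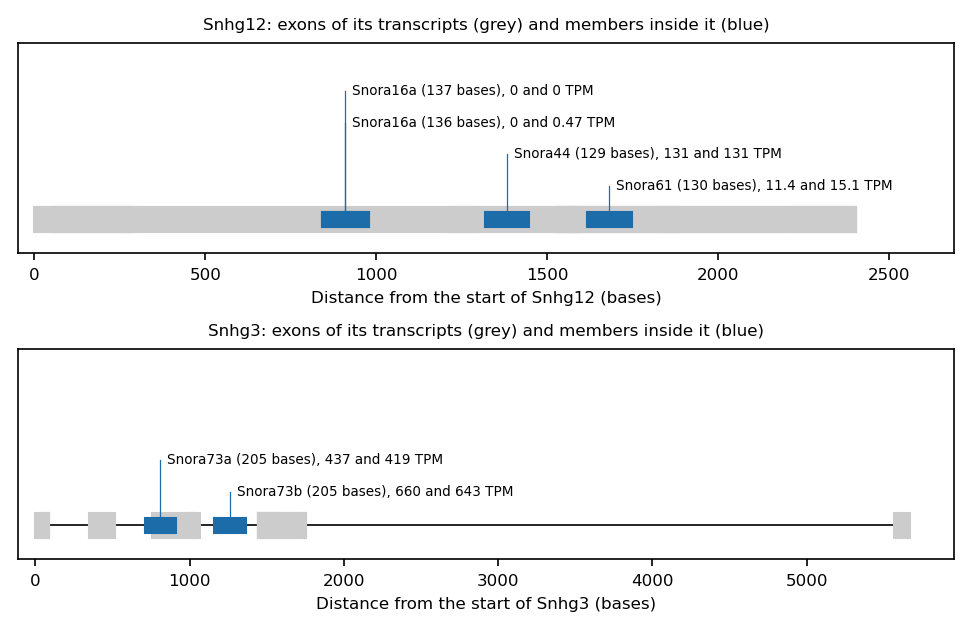
Maps of Snhg12 (above) and Snhg3 (below), with distance from the start of the host in bases, exons of any annotated transcript in grey and members in blue, each labelled with its TPM in replicate 1 and replicate 2. In Snhg12, exons of different transcripts together cover the whole gene. Snora44 at 131 and 131 TPM stands between the Snora16a models, at 0.47 TPM or less in each library, and Snora61 at 11.4 and 15.1 TPM.

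Other pairs gave similar contrasts. In Kansl2, Snora34 had 12.5 and 10.6 TPM and Snora2b, 68.0% identical to it, had 0 counts in both libraries. Scarna3a and Scarna3b, 85.7% identical, lie in the unrelated hosts Cop1 and Dcaf5 and had 9.42 and 8.76 TPM against 3.22 and 1.38 TPM. The overlapping Snora43 models of 139 and 127 bases shared 25 and 20 counts, 23.6 and 20 of them given to the longer model. Over all 1275 pairs of members the median identity was 49.1%, so these are exceptions.

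The 8 measurable members at 0 in both libraries were the 137-base Snora16a, Snora19, Snora20, Snora2b, Snora30, Snora35, Snora36b and Snora75. A count of 0 allows up to 3 counts, equal to 2.03 to 2.66 TPM in replicate 1 and 2.18 to 2.86 TPM in replicate 2 for these lengths. This ceiling covers counting error alone. It does not cap the level of a member whose windows are shared, since its reads may have been given to another transcript. Snora20, whose sequence with both boxes is printed above, lies in the chaperonin gene Tcp1 at 66.5 and 66.0 TPM and allows at most 2.66 and 2.86 TPM. Snora35 lies in the serotonin receptor gene Htr2c, which was at 0 TPM in both libraries. In all, 6 of these 8 members had a host at 10 TPM or more.

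For 3 of the 8, every 100-base window also lay in another gene model. The 137-base Snora16a shares its windows with Snhg12, Snora75 shares every 100-base window with a transcript of Ncl, the nucleolin gene, which took 24.1 and 16.2 counts over its whole length, and Snora19 shares every window with the gene model Gm23658, also at 0 counts. Over the 49 measurable members, 21 had every 100-base window in a transcript of another gene, 6 had some and 22 had none. Members with shared windows are uncertain, and Snora28 is the clearest case, with 5.58 and 6.39 counts while Eif5 transcripts that contain it took 301 and 335 counts over their whole length. Similarly, Snora33 took 0 and 1.97 counts while an Rps12 transcript that contains it took 97.0 and 91.7 in all.

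Members tended to be higher in replicate 1 than in replicate 2. Ratios are log2 of replicate 1 over replicate 2, after scaling the libraries by TMM (a trimmed mean over all genes) and adding 0.5 to each count. Over the 20 members that averaged at least 20 counts, the median ratio was 0.23, with a range of -0.11 to 1.21, beside a median of 0.003 over 15660 genes. It was above 0 for 19 of the 20, all but Snora68, while 50.6% of all genes were above 0. With total-count scaling Scarna2 joined Snora68 below 0, and with TPM ratios Scarna2 and Snora44 did, leaving 18 and 17 members above 0.

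Counting error alone put limits on this. For 11 of the 20 members the 95% interval of the ratio lay above 0 and for 0 it lay below, beside 34.1% of all genes that lay off 0 either way, 17.4% above 0 and 16.7% below. When the libraries were scaled by total counts instead, the intervals left 5 members above 0, Snora74a, Scarna6, Snora23, Snora26 and Snora52, and 0 below, beside 10.5% of all genes above and 28.4% below under that scaling. These intervals compare 2 libraries and not conditions, and in bulk RNA fewer cells of a type and less RNA per cell cannot be told apart.

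Among members that averaged at least 100 counts, 0 of 10 differed over 2-fold, beside 0.451% of 12430 genes. All 10 were higher in replicate 1, by 0.04 to 0.31 with a median of 0.16, and 7 of the intervals lay above 0 and 0 below, beside 19.8% above and 18.8% below among the 12430 genes. Snora23 had 394 and 316 counts, a ratio of 0.31 (interval 0.09 to 0.53). Snora74a had 2359 and 1910 counts, a ratio of 0.29 (0.21 to 0.38). Scarna10 had 6373 and 5837 counts, a ratio of 0.12 (0.07 to 0.17). The ratio nearest to 0 was that of Scarna2, 0.04 (-0.01 to 0.09).

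Among the 20 members, 1 differed over 2-fold, Snora52 at a ratio of 1.21 (0.60 to 1.88), beside 1.55% of genes. Every 100-base window of Snora52 lies in an Rplp2 transcript that keeps its intron, and over its whole length this transcript took 232 counts in replicate 1 and 395 counts in replicate 2, the other way round from the 72.7 and 31.0 counts of Snora52. Added together they gave 304 and 426 counts, a ratio of -0.49. The authors' posterior SD for Snora52 was 7.54 counts in replicate 1 and 8.88 in replicate 2. Snora81 in Eif4a2 also went below 0 when such counts were added, to -0.06, and 17 of the 20 members were then above 0 with a median of 0.16. Snora26 stayed above 0 but fell from 0.92 to 0.40. Its 100-base windows all lie in Dancr transcripts, which took 30.6 and 32.0 counts over their whole length.

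Members with no shared window had no counts of other transcripts to add, so their ratios could not change with that choice. There were 9 such members among the 20, with a median of 0.24. Snora17 had 37 and 20 counts, a ratio of 0.86 (0.06 to 1.74), and Snora21 had 71 and 47 counts, a ratio of 0.58 (0.03 to 1.15). The intervals of both reached close to 0.

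**Figure D5:**
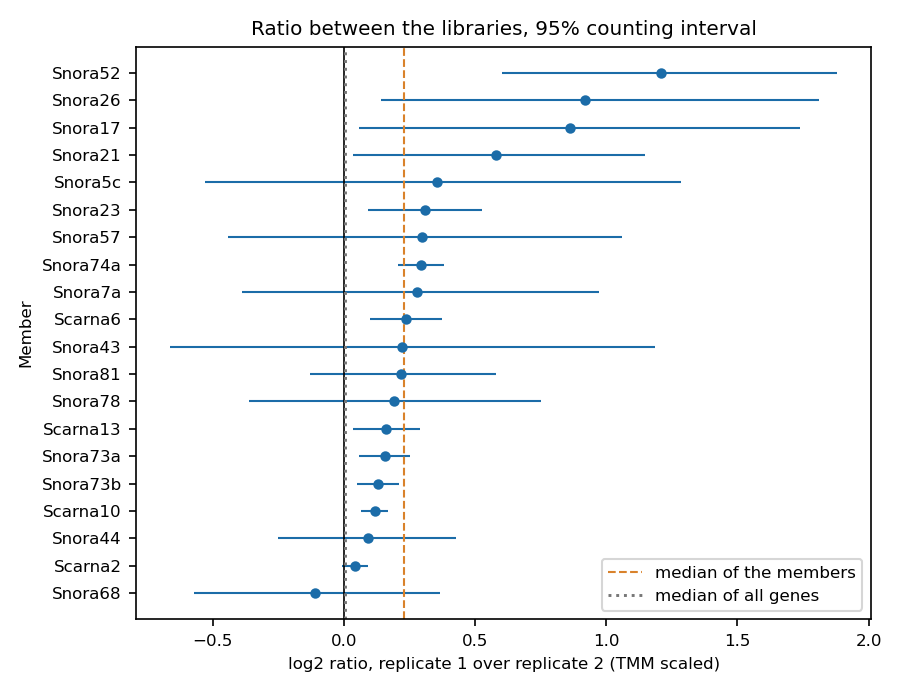
Ratio between the libraries, log2 of replicate 1 over replicate 2, for the 20 members that averaged at least 20 counts, with 95% intervals that cover counting error. The dashed line marks the members' median of 0.23 and the dotted line the median of all genes, 0.003, and Snora68 is the only point below 0.

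Hosts and other short RNAs had medians between those of the members and of all genes. The 15 hosts of 16 of these members had a median ratio of 0.05 with 10 above 0, and 13 of the 16 members had a higher ratio than their host. The 49 other snoRNA and scaRNA genes that averaged at least 20 counts had a median of 0.11, with 35 above 0, 13 intervals above 0 and 1 below. Members and those genes are alike short RNAs, and no test of a difference between them was made.

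Markers of other cells moved with the libraries too. Both brown fat markers, Ucp1 and Cidea, were higher in replicate 1 and summed to 863 TPM there, against 420 TPM in replicate 2. Both white fat markers, Adipoq and Fabp4, summed to 1695 and 1219 TPM, both red cell markers, Hba-a1 and Hbb-bs, to 1365 and 822 TPM, and the 4 medulla markers Th, Dbh, Pnmt and Chga to 1381 and 1209 TPM. The 3 cortex markers Star, Cyp11a1 and Cyp11b1, which define the labelled tissue, summed to 8763 and 9830 TPM, with 2 of the 3 below 0 beyond counting error. Liver Alb at 0.88 and 5.06 TPM and kidney Kap at 1.27 and 4.09 TPM were low in both. Their part in the ratios of the members was not tested.

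Genes for the proteins that bind, assemble or carry H/ACA RNAs were all detected as RNA. The pathway list also held the telomerase genes Terc and Tert and the box C/D core genes. All 21 of its genes were at 1 TPM or more in both libraries, with a median ratio of 0.02 and a range of -0.28 to 0.29. The interval lay above 0 for 3 genes and below 0 for 2, beside 17.4% and 16.7% of all genes, and 0 differed over 2-fold. Of the 4 core proteins, Dkc1 had 12.5 and 12.3 TPM, Nop10 had 35.4 and 31.3 TPM, Nhp2 had 22.1 and 23.3 TPM and Gar1 had 11.4 and 14.7 TPM. Intervals lay above 0 for Dkc1 at 0.19 and Nop10 at 0.27, and held 0 for Nhp2 at 0.03 and Gar1 at -0.18.

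Assembly factors varied in level, from Nufip1 at 2 and 1.88 TPM to Ruvbl2 at 15.1 and 13.0 TPM. Naf1, which holds the place of Gar1 during assembly, had 4.16 and 4.67 TPM, and Shq1, a dyskerin chaperone, had 2.48 and 2.45 TPM. Wrap53, which binds the Cajal body box and brings scaRNAs to the Cajal body, had 3.47 and 3.05 TPM, and Coil, the coilin scaffold of that body, had 2.77 and 3.26 TPM. None of Naf1, Shq1, Wrap53 and Coil had an interval off 0. Smn1, which assembles spliceosomal particles, was lower in replicate 1, at 9.98 TPM against 12.4 TPM in replicate 2, a ratio of -0.28 (-0.48 to -0.08).

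Terc, the telomerase RNA, ends in an H/ACA domain and binds the same core proteins although its symbol places it outside the members. It had 4.69 and 4.18 TPM from 59 and 49 counts, a ratio of 0.26 (-0.31 to 0.83). Scarna13 and Scarna6 averaged 149 and 138 TPM against 4.44 TPM for Terc. For the box C/D core proteins, Fbl stood at 30.1 and 29.5 TPM, Nop56 at 24.1 and 29.7 TPM, Nop58 at 25.3 and 23.6 TPM and Snu13 at 24.6 and 24.8 TPM.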

How the data were processed

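Adrenal gland total RNA from 2 libraries of 1 group was analysed. Per the file headers, the authors deposited expected counts (estimated counts, not whole numbers), TPM and FPKM in alignment-based gene and transcript tables, and estimated counts and TPM in read-based transcript tables. FPKM was not used. Coordinates follow mm10 (GRCm38) with GENCODE M21 gene models, per the labels and deposited file notes. Aligner and quantifier names are not given in the sources used here.

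Members and lists were chosen with earlier results of these data known. Any member could be named. Full values were given for the 10 snoRNAs and 6 scaRNAs of highest mean TPM, the largest ratios, members that share a host or sequence, members at 0 and those nearest 100 bases. Library sizes were scaled with TMM in edgeR 4.0.16 (R 4.3.3) on expected counts rounded to whole numbers. DESeq2 1.42.0 size factors, total counts, TPM ratios and other count minimums were alternatives. Ratios used counts plus 0.5. Intervals were exact Clopper-Pearson intervals at 95%, and floors were 3 counts.

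The common dispersion was 0.0105 over 16789 genes. On data simulated with that dispersion for the 2-fold rule (12430 genes, 200 of them changed), 100% of 3-fold and 2% of 1.5-fold changes were called, with 1 of 12230 unchanged genes. Boxes, windows and identities were computed from GENCODE M21 transcripts with Biopython 1.88. Genome sequence was not used here, so box frequencies were set against retained-intron transcripts in place of the planned upstream windows. Pairing could not be tested in 1 group.

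1 host gene is not reported here.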

Additional observations from a re-analysis of the deposited data

How the results depend on the processing

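No paired analysis was possible because the series holds 1 group. Of 42 alternatives, 31 kept counts within 1.5 times and other values within 1 SD, 11 went past that and 0 turned a direction. With 2 libraries, leaving out 1 always shifts a mean by less than 1 SD, so for the shares that check could not fail. For the median ratio that SD was taken over the members, a wide allowance because their ratios ran from -0.11 to 1.21. The 31 are therefore no measure of robustness. The members' share of counts was 0.0622%, and 0.0764% without mitochondrial genes, 0.00568% in the read-based tables and 0.00856% without the 5 highest members. Their share of TPM was 0.395%, and 0.275% on full annotated length, 0.0670% in the read-based tables and 0.101% without the 5 highest members. Members with 10 or more counts in both libraries numbered 27, 34 at a minimum of 1 count, 10 at a minimum of 100 counts and 1 in the read-based tables. Members over 2-fold apart numbered 0, and 1 at a mean of 20 or more counts. Members beyond counting error numbered 11, 5 with total-count scaling and 7 at a mean of 100 or more counts. Leaving out either library gave 0.0610% to 0.0635% of counts, 0.384% to 0.406% of TPM, 27 to 28 members with 10 or more counts, and 10 of the 10 highest members each time. Ratios need both libraries, so they have no such value.

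The median ratio of 0.23 lay between 0.14 and 0.24 under its alternatives. The median of all genes was -0.07 with total counts and -0.08 with TPM ratios. The alternatives without the 5 highest members, without shared windows, with covering counts added and with the basic annotation were chosen after seeing the data. Low counts limit the short members: 22 of the 49 measurable members had under 10 counts in at least 1 library. With 2 libraries, the SD of a level is itself poorly known. Loss of reads at CAST alleles was not tested.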
